A study of Morchella importuna with 4 samples.

Results

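The 41 genes described here encode enzymes of the tricarboxylic acid (TCA), glyoxylate and methylcitrate cycles of *Morchella importuna*, a black morel, and enzymes that feed or drain these cycles. The rule that chose them used enzyme names and no measured value, but the genes were chosen with earlier results of these data known. Of 11599 genes in the deposited table, 42 matched the enzyme names in their own description or in that of the most similar database protein, and 1 homoaconitase gene was left out. By their descriptions, 23 of the 41 were grouped with a step of the TCA cycle or with its entry through pyruvate dehydrogenase. The 23 include a peroxisomal NADP isocitrate dehydrogenase (JGI 535024). They also include JGI 507930, described only as a member of the isocitrate and isopropylmalate dehydrogenase family. A further 5 genes were grouped with the glyoxylate and methylcitrate steps, and 6 with branch reactions such as citrate cleavage. The remaining 7 were matched by spelling only (3-isopropylmalate dehydrogenase of leucine synthesis, for example) and are counted apart where it matters, leaving 34 pathway genes. Genes are named by their JGI numbers.

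The TCA cycle oxidises acetyl-CoA to carbon dioxide in the mitochondria and supplies reduced cofactors to respiration and carbon skeletons to amino acid synthesis. The glyoxylate shunt skips the decarboxylating steps of the cycle. Through isocitrate lyase and malate synthase it lets a fungus make sugars from acetate or fatty acids. The methylcitrate cycle runs a parallel set of reactions on propionyl-CoA, which comes from odd-chain fatty acids and some amino acids, and in fungi it ends in pyruvate and succinate.

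Sclerotia are the dense, pigmented resting bodies that morel mycelium forms in culture. A single strain was grown in the dark on potato dextrose agar at 20 °C, with no other treatment, and sampled at the sclerotial initiation (SI) stage. Cells of the sclerotial area in the plate centre (SII) were compared with those of the hyphal area outside it (SIO) on the same plates. Mycelium from 2 Petri dishes of this strain, which the sample labels count as individuals, was pooled per replicate, and 2 libraries per area were sequenced. The p-values therefore measure the spread between pooled samples, and the areas were sampled from whole mycelium, so that a smaller share of a cell type and less RNA per cell cannot be told apart. The labels of area were taken as given, since no marker of sclerotial cells was tested here.

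The values are FPKM, fragment counts scaled to the length of the gene and to the mapped fragments of the library, as deposited for each library. Totals of 23108142 to 27992918 whole reads per library stand behind them, and a member gene had between 5 and 80985 reads in a library, with at least 200 reads in every library for 38 of the 41. Over the 8906 genes tested, the median absolute log2 difference between the libraries was 0.36 in SII and 0.13 in SIO. Tests were run with limma on log2(FPKM + 1) over those 8906 genes, and a gene was called when the p adjusted by Benjamini-Hochberg was below 0.01 and the log2 fold change (SII over SIO, with its standard error, SE) reached 1 in either direction. For 2 against 2 libraries, the smallest two-sided p of an exact permutation test is 0.333.

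Most of the 41 genes had lower values in the sclerotial area, by widely different amounts. All 41 passed the filter on low values. The fold change was negative in 32 and positive in 9, and its median was -0.78, against -0.11 over all genes tested. By limma, 10 of the 41 were called (22.4% of all genes tested were), of which 8 were lower in SII (12.2% of all genes tested) and 2 higher (10.3%). Among these 8, JGI 527777 passed the filter on low values only through its SIO libraries. Of the 34 pathway genes, 6 were called lower and 2 higher, with a median of -0.82. Over all genes tested there were 914 higher and 1084 lower calls, and 981 higher and 743 lower under median-ratio scaling. Both SII libraries lay below both SIO libraries in 30 of the 41 genes (43.9% of all genes tested) and above them in 6 (35.6%), so that the areas did not overlap in 36 (79.6% of all genes tested). The log2 fold change was 1 or more in size in 20 of the 41, or 48.8%, against 39.1% of all genes tested. The 10 of these that were not called were all lower in SII by their values and had limma adjusted p from 0.0110 to 0.0309. The calls of all 10 called genes were lost when either SIO replicate was left out, with limma adjusted p between 0.0297 and 0.0960. The lone SIO library is then assumed to vary like the SII libraries.

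**Figure D1:**
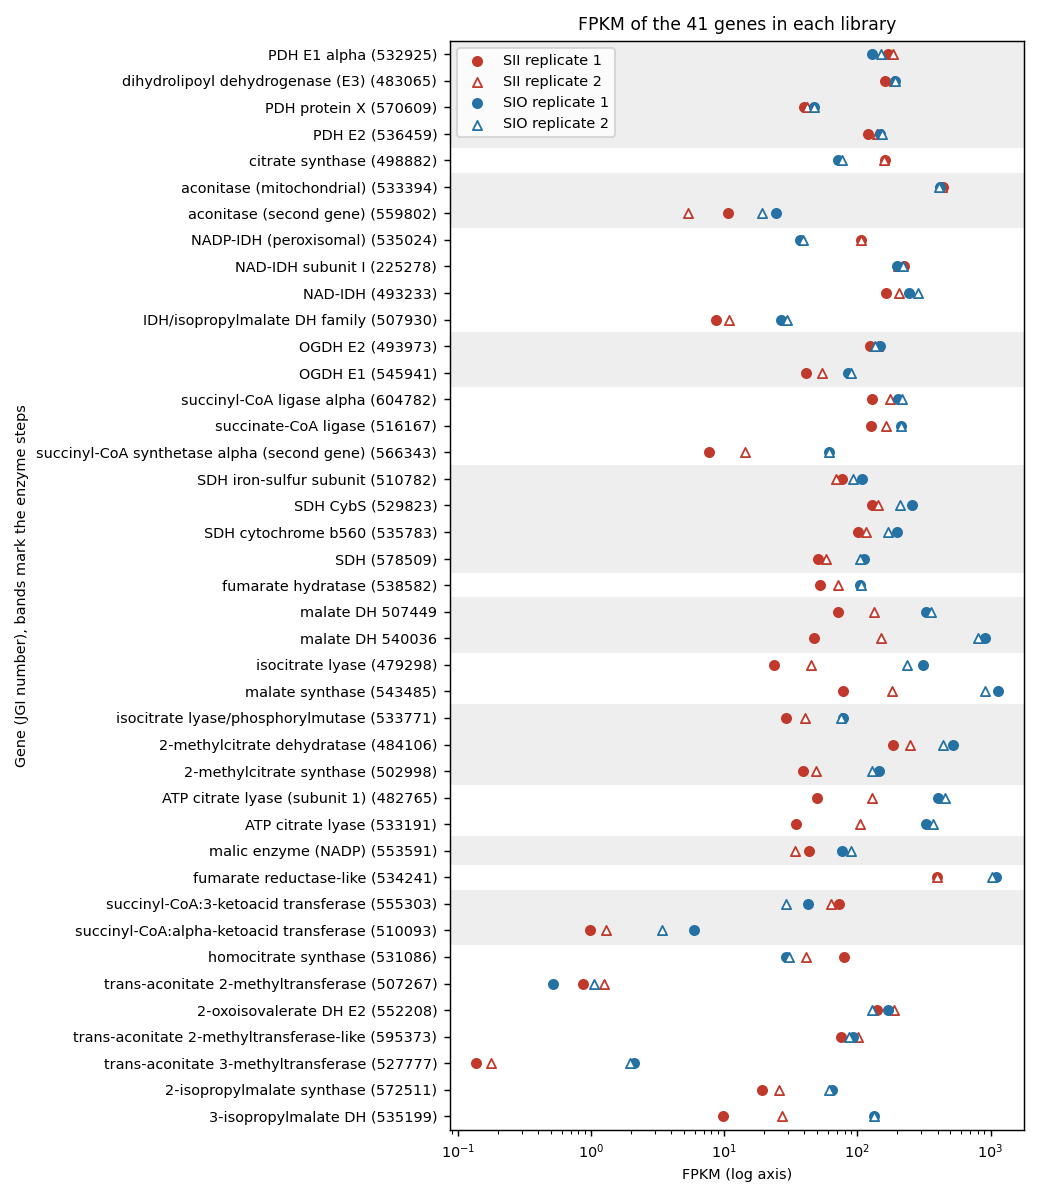
FPKM of each of the 41 genes (vertical axis, JGI number in brackets, grouped by enzyme step in shaded and white bands) in the 4 libraries (horizontal log axis). Red marks are SII and blue marks SIO, filled circles replicate 1 and open triangles replicate 2. Citrate synthase and peroxisomal NADP isocitrate dehydrogenase are the called genes with red marks to the right, while isocitrate lyase, malate synthase and both malate dehydrogenase genes have all red marks far to the left.

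The genes for the entry of pyruvate into the cycle had small fold changes. The pyruvate dehydrogenase complex makes acetyl-CoA from pyruvate, and its 4 genes had log2 fold changes from -0.21 to 0.35, none of which passed the test. The most abundant by mean FPKM over the 4 libraries was dihydrolipoyl dehydrogenase (JGI 483065), the E3 enzyme that pyruvate and 2-oxoglutarate dehydrogenase share, with 160.3 and 188 FPKM in SII replicates 1 and 2 and 192 and 190.3 FPKM in SIO replicates 1 and 2. Its log2 fold change was -0.14 with a standard error of 0.16. The E1 alpha subunit (JGI 532925), which decarboxylates pyruvate, was the gene of the complex with a positive fold change, at 169 and 184 FPKM in SII and 128 and 149 FPKM in SIO. The acetyltransferase E2 (JGI 536459) and protein X (JGI 570609), which anchors E3 to the complex, had fold changes of -0.21 and -0.20.

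Citrate synthase, which joins acetyl-CoA to oxaloacetate and opens the cycle, was higher in the sclerotial area. JGI 498882, annotated as the mitochondrial enzyme, was at 161 and 158 FPKM in the SII libraries and 71.4 and 76.4 FPKM in the SIO libraries. Values within each area were close, and the mean was 2.16-fold higher in SII. The log2 fold change was 1.10 with a standard error of 0.14 (limma adjusted p = 0.00649). It was 1.05 without SIO replicate 1 (limma adjusted p = 0.0960), 1.15 without SIO replicate 2 (limma adjusted p = 0.0818) and not called in either. It stayed called without SII replicate 1 or SII replicate 2.

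Aconitase turns citrate into isocitrate, and its main gene stood at a similar level in both areas. JGI 533394, annotated as mitochondrial and the most abundant cycle gene in SII, was at 438 and 435 FPKM in SII and 419 and 413 FPKM in SIO. Its log2 fold change was 0.07 with a standard error of 0.15. A weakly expressed aconitase gene (JGI 559802) was at 10.6 and 5.37 FPKM in SII and 24.6 and 19.3 FPKM in SIO. All SII values lay below all SIO values, but the fold change of -1.41 was not called (standard error 0.35, limma adjusted p = 0.0309). It was called without SII replicate 1, at -1.84.

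Among the isocitrate dehydrogenases, which make 2-oxoglutarate, the NADP enzyme rose in SII, and neither gene of the NAD enzyme of the cycle was called. The peroxisomal NADP isocitrate dehydrogenase (JGI 535024), whose reaction supplies NADPH, was at 106.1 and 106.4 FPKM in SII and 36.9 and 39.1 FPKM in SIO. The areas were well apart, with a 2.79-fold higher mean in SII. The log2 fold change was 1.46 with a standard error of 0.14 (limma adjusted p = 0.00432), and it stood at 1.42 without SIO replicate 1 (limma adjusted p = 0.0585) and 1.5 without SIO replicate 2 (limma adjusted p = 0.0554). The NAD isocitrate dehydrogenase JGI 493233, the most abundant gene of the step by mean FPKM over the 4 libraries, was at 165 and 207 FPKM in SII and 245 and 285 FPKM in SIO, and its fold change of -0.51 was not called. Subunit I of the same enzyme (JGI 225278) was at 226 and 201 FPKM in SII and 199 and 219 FPKM in SIO, which overlap, with a fold change of 0.03 that turned sign when SII replicate 1 or SIO replicate 1 was left out (-0.05 and -0.04). JGI 507930, described only as a member of the isocitrate and isopropylmalate dehydrogenase family, fell. It was at 8.62 and 10.8 FPKM in SII and 26.8 and 29.7 FPKM in SIO (limma log2 fold change -1.46, SE 0.20, adjusted p = 0.00734). That call was lost under median-ratio scaling and quantile normalization (limma adjusted p of 0.0116 and 0.0107) and without SIO replicate 1 or SIO replicate 2 (0.0779 and 0.0959).

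From 2-oxoglutarate to fumarate the log2 fold changes were all negative and, but for 1 succinyl-CoA ligase gene, under 1 in size. 2-oxoglutarate dehydrogenase releases carbon dioxide and makes succinyl-CoA. Its succinyltransferase E2 (JGI 493973) was at 124 and 143 FPKM in SII and 147 and 136 FPKM in SIO, which overlap (fold change -0.09, and 0.01 without SII replicate 1). The E1 component (JGI 545941) did not overlap between areas, at 41.3 and 54.3 FPKM in SII and 84.4 and 89.5 FPKM in SIO, and its fold change was -0.86 (standard error 0.19, limma adjusted p = 0.0228). It was called without SII replicate 2, at -1.06.

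Succinyl-CoA ligase, the step that yields a nucleoside triphosphate, has 3 genes in the list, and they differed from each other. The more abundant alpha subunit (JGI 604782) was at 129.6 and 177 FPKM in SII and 200.2 and 216 FPKM in SIO, with a fold change of -0.45 that was not called. JGI 516167, described as a succinate-CoA ligase, had a fold change of -0.56 that was not called either. The second gene described as an alpha subunit (JGI 566343) fell, from 60.8 FPKM in each SIO library to 7.64 and 14.3 FPKM in SII. The SIO mean was 5.53-fold higher, and the log2 fold change was -2.42 (standard error 0.32, limma adjusted p = 0.00684). Leaving out SIO replicate 1 or SIO replicate 2 kept -2.42 and ended the call (limma adjusted p of 0.0497 and 0.0504).

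Succinate dehydrogenase links the cycle to the respiratory chain, and the 4 genes of its subunits had fold changes between -0.99 and -0.47. The most abundant, the small cytochrome b subunit CybS (JGI 529823), was at 128 and 144 FPKM in SII and 256 and 208 FPKM in SIO. The gene closest to a call was JGI 578509, described as succinate dehydrogenase, at 50.7 and 58.0 FPKM in SII and 113 and 104 FPKM in SIO (limma log2 fold change -0.99, SE 0.16, adjusted p = 0.0101). It was called without SII replicate 2, at -1.08. In all 4 genes both SII libraries were below both SIO libraries, as in 43.9% of all genes tested. Fumarase (JGI 538582), which hydrates fumarate to malate, was at 52.4 and 71.5 FPKM in SII and 105 and 106 FPKM in SIO, a fold change of -0.78 that was not called (limma adjusted p = 0.0336). Without SII replicate 2 it was -1.0 and called.

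The last step of the cycle, malate dehydrogenase, showed large fold changes that were not called. Malate dehydrogenase oxidises malate to oxaloacetate, and fungi hold forms of it in several compartments, which the descriptions do not tell apart here. JGI 540036 was at 46.9 and 150 FPKM in SII and 911 and 809.7 FPKM in SIO. The SIO mean was 8.75-fold higher, and SII replicate 2 was 3.19 times SII replicate 1. The log2 fold change was -3.34 with a standard error of 0.57 (limma adjusted p = 0.0119). JGI 507449 was at 71.9 and 134 FPKM in SII and 325 and 359.5 FPKM in SIO (limma log2 fold change -1.79, SE 0.33, adjusted p = 0.0142). Both genes were called when SII replicate 1 or SII replicate 2 was left out, JGI 540036 at -2.51 and -4.17 and JGI 507449 at -1.35 and -2.23. Only the SIO libraries, with their smaller differences, then give the spread.

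**Figure D2:**
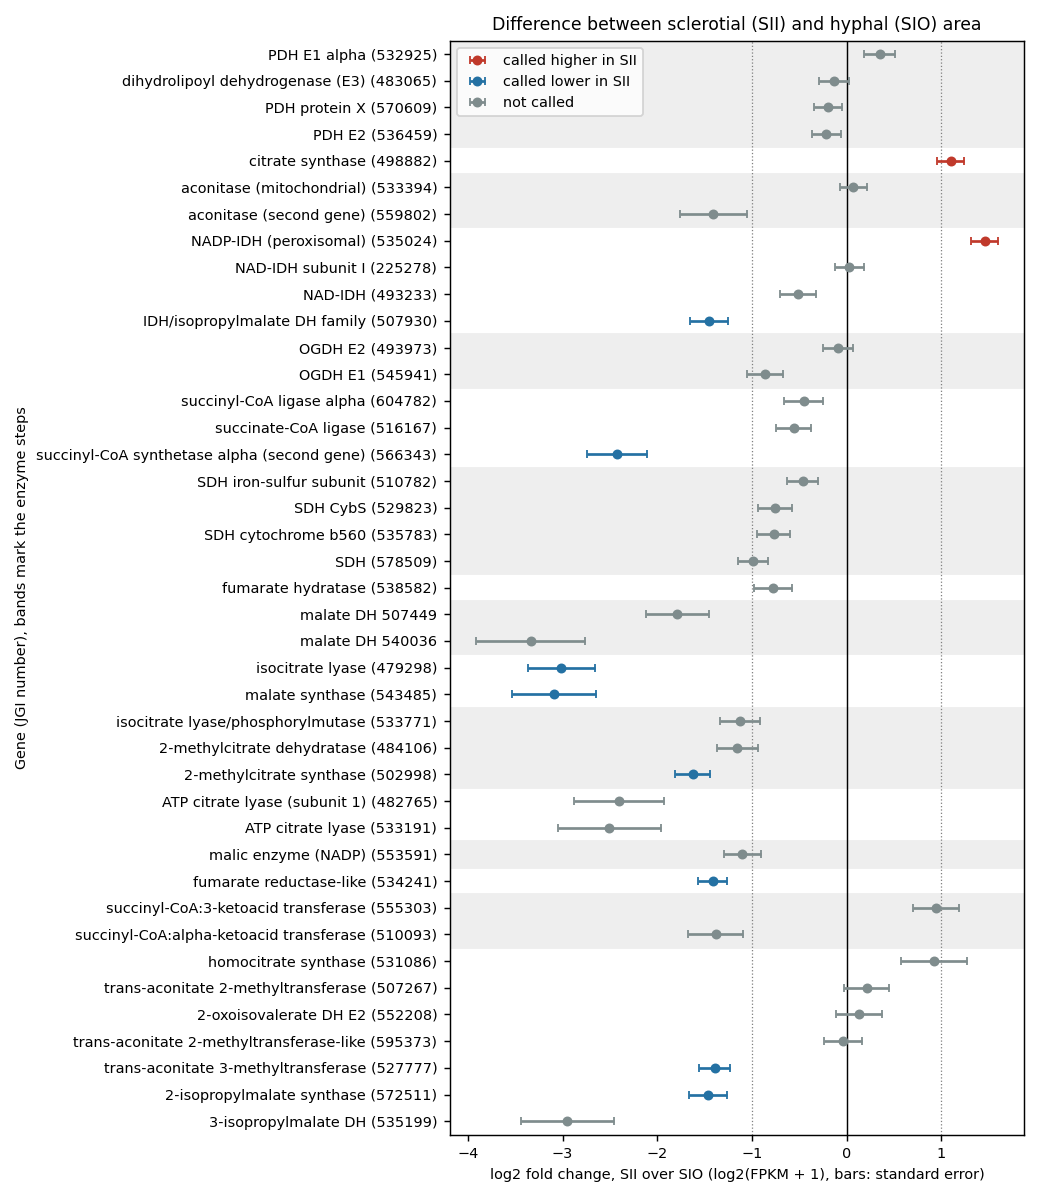
Log2 fold change of the 41 genes, SII over SIO, on log2(FPKM + 1) (horizontal axis), with bars of 1 standard error from limma and dotted lines at the fold limit of 1 in each direction. Red points were called higher in SII (2 genes), blue points lower (8 genes) and grey points were not called; malate dehydrogenase JGI 540036 has the lowest value, -3.34, and the widest bar.

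Both genes of the glyoxylate shunt fell in the sclerotial area, by nearly the same amount. Isocitrate lyase (JGI 479298), which splits isocitrate into succinate and glyoxylate, was at 23.8 and 45.1 FPKM in SII and 312 and 238 FPKM in SIO. Malate synthase (JGI 543485), which joins glyoxylate to acetyl-CoA, was at 77.8 and 181 FPKM in SII and 1144 and 909.6 FPKM in SIO. Every SII value of either gene lay under every SIO value, as in 43.9% of all genes tested. Mean FPKM was 7.97-fold higher in SIO for isocitrate lyase and 7.93-fold higher for malate synthase. Isocitrate lyase had a log2 fold change of -3.01 (standard error 0.36, limma adjusted p = 0.00572), and malate synthase one of -3.09 (standard error 0.44, limma adjusted p = 0.00808). Without SII replicate 1 the fold changes were -2.57 for isocitrate lyase and -2.49 for malate synthase, and without SII replicate 2 they were -3.46 and -3.70, so that their size depended on which SII library was used. Under median-ratio scaling the malate synthase call was lost at -3.00 (limma adjusted p = 0.0108). With SIO replicate 1 left out, isocitrate lyase was at -2.82 (limma adjusted p = 0.0373) and malate synthase at -2.93 (limma adjusted p = 0.0437). With SIO replicate 2 left out, the values were -3.21 (limma adjusted p = 0.0297) and -3.26 (limma adjusted p = 0.0374), so that neither was called.

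The methylcitrate genes had lower values in SII as well, with smaller fold changes, and 1 of them was called. JGI 502998 has citrate synthase as its own description and 2-methylcitrate synthase, which joins propionyl-CoA to oxaloacetate, as its database match. It was at 39.0 and 48.8 FPKM in SII and 146 and 128 FPKM in SIO. It fell 3.12-fold by the means (limma log2 fold change -1.63, SE 0.19, adjusted p = 0.00551), with -1.53 without SIO replicate 1 (limma adjusted p = 0.0585) and -1.72 without SIO replicate 2 (limma adjusted p = 0.0504). 2-Methylcitrate dehydratase (JGI 484106), the next enzyme, was the most abundant of the 3 genes, at 184 and 248 FPKM in SII and 519 and 439 FPKM in SIO. Its fold change of -1.15 was not called (standard error 0.22, limma adjusted p = 0.0147), and without SII replicate 2 it was -1.37 and called. JGI 533771, described as isocitrate lyase and phosphorylmutase, belongs to the family that also holds 2-methylisocitrate lyase, the enzyme that closes the methylcitrate cycle, and its description does not say which of these it is. It was at 29.1 and 40.5 FPKM in SII and 77.6 and 74.9 FPKM in SIO (limma log2 fold change -1.13, SE 0.21, adjusted p = 0.0147), and it too was called without SII replicate 2, at -1.36. In all 3 genes both SII libraries were below both SIO libraries, as in 43.9% of all genes tested.

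Citrate synthase and 2-methylcitrate synthase (so named by its database match), related enzymes that differ in the acyl-CoA they use, thus moved in opposite directions. Within a library, the FPKM of citrate synthase was 4.11 and 3.24 times that of 2-methylcitrate synthase in SII, and 0.488 and 0.597 times in SIO. The order of the 2 genes was reversed between the areas in every library. FPKM is per length, so these ratios compare levels per kilobase.

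ATP citrate lyase cleaves citrate in the cytosol and supplies acetyl-CoA for lipid synthesis and protein acetylation. Ascomycete fungi encode its subunits in a pair of separate genes. JGI 482765, described as citrate synthase and matched to ATP-citrate synthase subunit 1, was at 49.8 and 128 FPKM in SII and 400.3 and 453 FPKM in SIO. JGI 533191, whose own description names only an ATP-binding domain and whose database match is an ATP citrate lyase subunit, was at 34.7 and 105 FPKM in SII and 330.3 and 368 FPKM in SIO. Both genes had the same order of libraries, with SII replicate 1 lowest and SIO replicate 2 highest. Their log2 fold changes of -2.40 (standard error 0.47, limma adjusted p = 0.0167) and -2.51 (standard error 0.55, limma adjusted p = 0.0211) were not called. They were called without SII replicate 1, at -1.73 and -1.72, and without SII replicate 2, at -3.07 and -3.29.

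The fumarate reductase-like gene had the highest mean FPKM of the 41 in the hyphal area and fell in SII. JGI 534241, whose database match is a flavocytochrome c, was at 394 and 397 FPKM in SII and 1095 and 1018 FPKM in SIO. In *Saccharomyces cerevisiae*, soluble flavoproteins of this name reduce fumarate to succinate. The libraries of each area were close together, and the log2 fold change was -1.41 (standard error 0.16, limma adjusted p = 0.00524). The call was lost without SIO replicate 1 (-1.36, limma adjusted p = 0.0656) and without SIO replicate 2 (-1.47, limma adjusted p = 0.0584). The NADP malic enzyme (JGI 553591), which turns malate into pyruvate with gain of NADPH, was at 43.1 and 34.0 FPKM in SII and 77.1 and 90.03 FPKM in SIO (limma log2 fold change -1.10, adjusted p = 0.0127), and was called without SII replicate 1, at -1.27.

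The genes of the CoA transferases that use succinyl-CoA pointed in opposite directions, and neither was called. Succinyl-CoA:3-ketoacid CoA transferase (JGI 555303), which in animals activates acetoacetate for oxidation, was at 72.9 and 63.7 FPKM in SII and 42.3 and 28.8 FPKM in SIO (limma log2 fold change 0.94, SE 0.24, adjusted p = 0.0314), and without SII replicate 2 it was 1.04 and called. Succinyl-CoA:alpha-ketoacid CoA transferase (JGI 510093) was weakly expressed, at 0.980 and 1.28 FPKM in SII and 5.96 and 3.42 FPKM in SIO, on 46 and 56 reads in SII and 315 and 178 reads in SIO. Its fold change was -1.38 (limma adjusted p = 0.0189). SII replicate 1 lay under an FPKM of 1, so the gene passed the filter on low values only with its SIO libraries. A difference in this direction was thus favoured by its being tested.

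The 7 genes matched by spelling include enzymes of leucine and lysine synthesis. Of these 7, 2 were called lower. 2-Isopropylmalate synthase (JGI 572511), the committed step of leucine synthesis, was at 19.2 and 25.7 FPKM in SII and 64.8 and 61.7 FPKM in SIO (limma log2 fold change -1.47, SE 0.20, adjusted p = 0.00747). Its call was lost under median-ratio scaling (limma adjusted p = 0.0121) and without SIO replicate 1 or SIO replicate 2 (limma adjusted p of 0.0787 and 0.0729). 3-Isopropylmalate dehydrogenase (JGI 535199), a later leucine enzyme, was at 9.70 and 27.2 FPKM in SII and 132 and 134 FPKM in SIO, and its fold change of -2.95 narrowly missed the call (standard error 0.49, limma adjusted p = 0.0110). It was called at -2.25 without SII replicate 1 and -3.65 without SII replicate 2.

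The other call among them rests on few reads. Trans-aconitate 3-methyltransferase (JGI 527777), which in *S. cerevisiae* methylates the isomer of aconitate that inhibits aconitase, was at 0.137 and 0.176 FPKM in SII and 2.11 and 1.97 FPKM in SIO. These values stand for 5 and 6 reads in SII and 87 and 80 reads in SIO. The gene passed the filter on low values only through its SIO libraries, so a difference in this direction was built into its being tested. The log2 fold change on log2(FPKM + 1) was -1.40 (limma adjusted p = 0.00587), lost without SIO replicate 1 or SIO replicate 2 (limma adjusted p of 0.0590 and 0.0540), and with a pseudocount of 0.1 it was -3.07. Homocitrate synthase (JGI 531086), which opens lysine synthesis in fungi, was at 79.7 and 41.2 FPKM in SII and 28.9 and 30.6 FPKM in SIO. Its fold change of 0.93 was not called (limma adjusted p = 0.0857), and without SII replicate 2 it was 1.39 and called. The most abundant of the 7 was the E2 component of 2-oxoisovalerate dehydrogenase (JGI 552208), of branched-chain amino acid breakdown, at 139.9 and 188 FPKM in SII and 171 and 129 FPKM in SIO, which overlap. The genes described as trans-aconitate 2-methyltransferase (JGI 507267) and as similar to it (JGI 595373) overlapped as well, with fold changes of 0.21 and -0.03. The last was 0.06 under median-ratio scaling and 0.02 under quantile normalization.

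Together the 34 pathway genes took up more of the hyphal than of the sclerotial transcriptome. They held 0.382% and 0.463% of the summed FPKM in the SII libraries and 1.06% and 0.995% in the SIO libraries. By summed FPKM they stood at 3509 and 4264 in SII and at 8409 and 7936 in SIO. The sums of pyruvate dehydrogenase, aconitase and isocitrate dehydrogenase contributed little to the gap. The pyruvate dehydrogenase complex summed to 522 ± 46.1 FPKM in SII against 527 ± 17.3 FPKM in SIO, aconitase to 445 ± 5.82 and 438 ± 8.09 FPKM, and isocitrate dehydrogenase to 515 ± 13.8 and 540.1 ± 46.2 FPKM (SD, n = 2 libraries per area). The genes of malate dehydrogenase summed to 201 ± 117 FPKM in SII against 1203 ± 47.2 FPKM in SIO, and those of the glyoxylate shunt to 164 ± 88.1 and 1302 ± 218 FPKM. ATP citrate lyase summed to 159 ± 105 FPKM in SII and 776 ± 63.9 FPKM in SIO. The fumarate reductase-like gene stood at 395 ± 1.97 and 1056 ± 54.4 FPKM. The methylcitrate and isocitrate lyase family summed to 295 ± 60.1 and 692 ± 71.4 FPKM. Citrate synthase (160 ± 1.54 and 73.9 ± 3.54 FPKM) and the succinyl-CoA transferases (69.5 ± 6.28 and 40.3 ± 11.3 FPKM) were higher in SII. The isocitrate dehydrogenase sum joins genes that differed in direction.

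**Figure D3:**
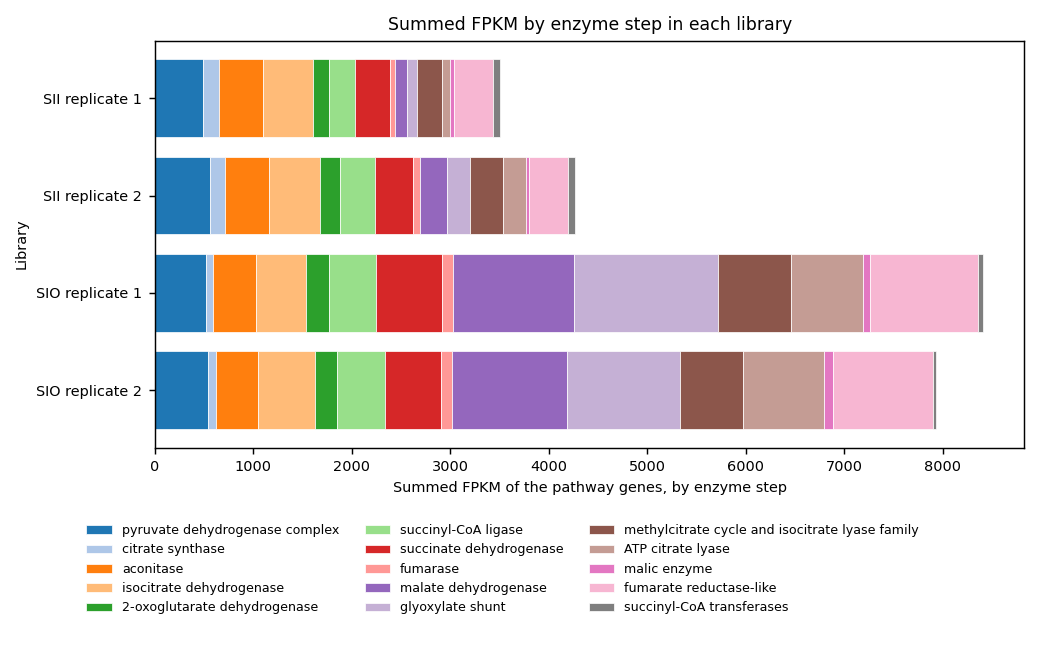
Summed FPKM of the 34 pathway genes in each library (horizontal axis), stacked by enzyme step in the order of the legend. The bars of the pyruvate dehydrogenase complex, aconitase and isocitrate dehydrogenase have similar widths in all 4 libraries, while those of malate dehydrogenase, the glyoxylate shunt and ATP citrate lyase are several times wider in SIO, where the totals are 8409 and 7936 against 3509 and 4264 in SII.

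The make-up of the pathway's transcripts shifted accordingly. Isocitrate lyase and malate synthase held 4.10% ± 1.70 of the pathway FPKM in SII and 15.9% ± 2.02 in SIO (SD, n = 2 libraries per area). Malate dehydrogenase held 5.02% ± 2.31 in SII and 14.7% ± 0.0256 in SIO, and ATP citrate lyase 3.93% ± 2.16 and 9.52% ± 1.17. The share of aconitase went the other way, with 11.6% ± 1.74 in SII and 5.36% ± 0.121 in SIO, though its summed FPKM was similar in both areas. Shares of the pyruvate dehydrogenase complex (13.5% ± 0.665 and 6.46% ± 0.477) and of isocitrate dehydrogenase (13.4% ± 1.48 and 6.63% ± 0.837) were likewise larger in SII. The methylcitrate and isocitrate lyase family genes kept a similar part of the whole, 7.56% ± 0.509 in SII and 8.46% ± 0.526 in SIO. All 23 genes grouped with the cycle and its entry, JGI 535024 and JGI 507930 among them, held 71.3% ± 2.30 in SII and 51.7% ± 1.48 in SIO. These shares were not tested.

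The genes of the glyoxylate shunt, and those of ATP citrate lyase, had similar ratios to each other in all 4 libraries. Within each library, malate synthase had 3.27 and 4.01 times the FPKM of isocitrate lyase in SII and 3.66 and 3.83 times in SIO. The ratio of the ATP citrate lyase genes, JGI 482765 over JGI 533191, was 1.44 and 1.22 in SII and 1.21 and 1.23 in SIO. Ratios between genes of enzymes that use isocitrate differed between the areas instead. The FPKM of isocitrate lyase was 0.0609 and 0.111 of the summed FPKM of the NAD isocitrate dehydrogenase genes JGI 493233 and JGI 225278 in SII. In SIO it was 0.704 and 0.471 of that sum. Peroxisomal NADP isocitrate dehydrogenase was at 0.271 and 0.261 of the same sum in SII and 0.0833 and 0.0776 in SIO.

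Within the malate dehydrogenase, succinyl-CoA ligase and aconitase steps, the balance between genes differed too. Malate dehydrogenase JGI 540036 had 0.652 and 1.12 times the FPKM of JGI 507449 in SII and 2.80 and 2.25 times in SIO. The succinyl-CoA ligase alpha gene JGI 604782 exceeded JGI 566343 by 17.0 and 12.4 times in SII and by 3.29 and 3.55 times in SIO. For aconitase, JGI 533394 exceeded JGI 559802 by 41.4 and 81.1 times in SII and by 17.0 and 21.4 times in SIO.

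The SII libraries were not equally far from the hyphal area in these genes. SII replicate 2 was above SII replicate 1 in 29 of the 32 genes with a negative fold change, or 90.6%, against 62.3% of all tested genes with a negative fold change. It thus stood nearer to SIO in these 29. The median absolute log2 difference between the SII libraries was 0.32 over the 41 genes, and between the SIO libraries 0.14, near the 0.36 and 0.13 over all genes tested. The difference reached 1 in 5 of the 41 in SII and in none of them in SIO. The widest was malate dehydrogenase JGI 540036, at 46.9 against 150 FPKM, a log2 difference of 1.65. Citrate synthase, peroxisomal NADP isocitrate dehydrogenase, the main aconitase gene and the fumarate reductase-like gene differed little between the SII libraries.

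**Figure D4:**
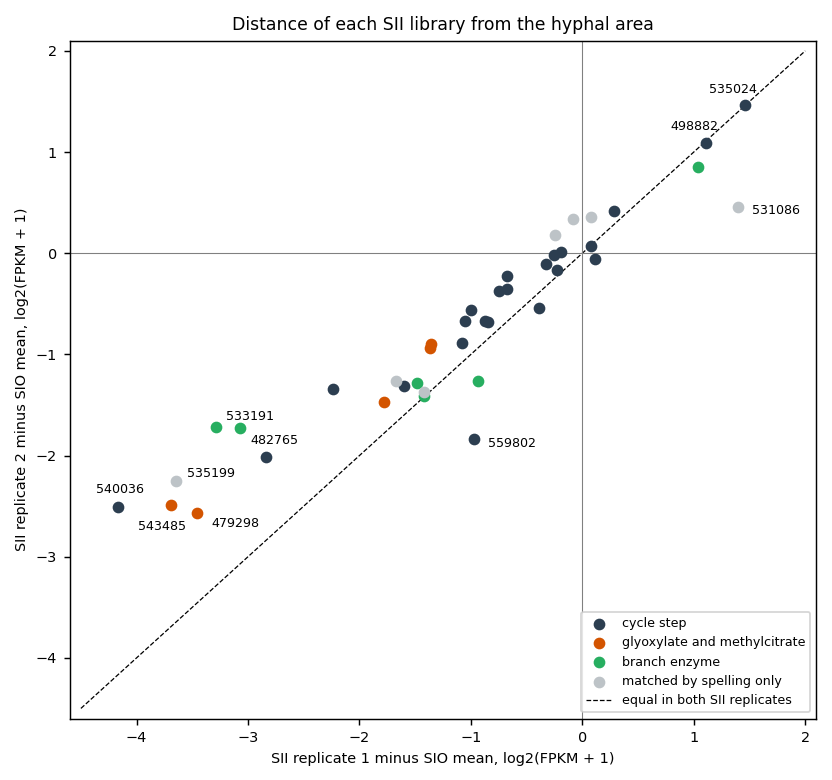
Difference of each SII library from the SIO mean on log2(FPKM + 1), SII replicate 1 on the horizontal and SII replicate 2 on the vertical axis, for the 41 genes coloured by role, with some JGI numbers. Points above the dashed line of equal values stood nearer to, or further above, SIO in SII replicate 2; malate dehydrogenase JGI 540036, malate synthase JGI 543485, isocitrate lyase JGI 479298 and the ATP citrate lyase genes JGI 533191 and JGI 482765 lie well above it, and citrate synthase JGI 498882 and NADP isocitrate dehydrogenase JGI 535024 on it.

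Genes of the surrounding metabolism were taken from 5 lists of descriptions, 35 genes in all, of which 32 were tested, with a median log2 fold change of -1.13. By limma, 7 were called lower (12.2% of all genes tested were) and 2 higher (10.3%), 9 of 32 in all beside 22.4% of all genes tested, and the counts for the single lists are to be read against the same shares. Of the 3 genes that refill or drain oxaloacetate and lead to sugars, pyruvate carboxylase (JGI 508118), which makes oxaloacetate from pyruvate, was called lower. It was at 21.6 and 54.4 FPKM in SII and 325 and 449 FPKM in SIO (limma log2 fold change -3.44, SE 0.48, adjusted p = 0.00775), and leaving out SII replicate 1 gave -2.79 and leaving out SII replicate 2 gave -4.08. Phosphoenolpyruvate carboxykinase (JGI 480021), which starts gluconeogenesis from oxaloacetate, was the most abundant, at 229.6 and 432 FPKM in SII and 875 and 624 FPKM in SIO, and was not called (-1.23, limma adjusted p = 0.0520). All 9 calls in these lists were lost without SIO replicate 1 or SIO replicate 2.

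Acetyl-CoA and propionyl-CoA supply had 18 genes, many of them described only as members of the acetyl-CoA synthetase-like superfamily, which also holds other acid-CoA ligases. Of 16 tested, 1 was called higher and 3 lower. Acetyl-CoA hydrolase (JGI 521111), the gene of the list with the highest mean in SII, was the one called higher, at 678 and 360.2 FPKM in SII and 57.1 and 51.5 FPKM in SIO (limma log2 fold change 3.16, SE 0.34, adjusted p = 0.00490). In fungi the enzymes of this name include CoA transferases that exchange CoA between acetate, succinate and propionate. Over the 4 libraries the most abundant gene was instead JGI 552733, acetyl-CoA synthetase-like, at 355 and 373 FPKM in SII and 337 and 320.3 FPKM in SIO, with a fold change of 0.15 that was not called. The acetyl-CoA synthetase-like gene JGI 531111 was called lower, at 5.97 and 20.2 FPKM in SII and 145 and 188 FPKM in SIO (limma log2 fold change -3.77, adjusted p = 0.00907). Its SII libraries differed widely, and leaving out SII replicate 1 gave -2.97 and leaving out SII replicate 2 gave -4.58. JGI 578886, of the same description, was called lower at 9.45 and 15.8 FPKM in SII and 133 and 121 FPKM in SIO (limma log2 fold change -3.27, adjusted p = 0.00354). A putative carnitine acetyltransferase (JGI 482590), which moves acetyl groups between compartments, was called lower at 28.8 and 28.7 FPKM in SII and 115 and 75.3 FPKM in SIO (limma log2 fold change -1.66, adjusted p = 0.00869).

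Among 4 mitochondrial carriers, a tricarboxylate transporter (JGI 539097), of the kind that exports citrate, was called lower, at 15.2 and 19.6 FPKM in SII and 57.6 and 58.2 FPKM in SIO (limma log2 fold change -1.69, adjusted p = 0.00541). The most abundant, a dicarboxylate carrier (JGI 480551), was at 119 and 256 FPKM in SII and 622 and 590.02 FPKM in SIO and had a fold change of -1.79 that was not called (limma adjusted p = 0.0221). Of 7 tested genes of the GABA shunt and of glutamate and aspartate metabolism, which exchange carbon with 2-oxoglutarate, oxaloacetate and succinate, 1 was called higher and 2 lower. Glutamate decarboxylase (JGI 557615), which makes GABA, was higher at 149.9 and 132 FPKM in SII against 14.8 and 20.9 FPKM in SIO (limma log2 fold change 2.93, SE 0.22, adjusted p = 0.00296). 4-Aminobutyrate aminotransferase (JGI 517130) had lower values in SII, at 36.6 and 75.7 FPKM against 204 and 222 FPKM in SIO. Its fold change of -1.99 was not called (limma adjusted p = 0.0146). Another gene matched to glutamate decarboxylase (JGI 552191, 0.42) and succinate-semialdehyde dehydrogenase (JGI 575382, 0.96) were not called either. Aspartate aminotransferase (JGI 489513), which interconverts aspartate and oxaloacetate, was lower, at 3.33 and 5.22 FPKM in SII and 19.3 and 19.2 FPKM in SIO (limma log2 fold change -1.96, adjusted p = 0.00635). NADP glutamate dehydrogenase (JGI 503467), which makes glutamate from 2-oxoglutarate and ammonium, was lower as well, at 15.9 and 23.1 FPKM in SII and 63.3 and 86.5 FPKM in SIO (limma log2 fold change -1.89, adjusted p = 0.00811). The most abundant gene of the list, the NAD glutamate dehydrogenase JGI 480920, was at 53.8 and 133 FPKM in SII and 331 and 291 FPKM in SIO and had a fold change of -1.86 that was not called (limma adjusted p = 0.0287). The lipoate list, whose cofactor the pyruvate and 2-oxoglutarate dehydrogenases need, had 2 genes, neither of them called. Lipoyl synthase (JGI 510887), the more abundant, was at 16.1 and 22.2 FPKM in SII and 32.9 and 28.2 FPKM in SIO (fold change -0.66), and lipoyltransferase (JGI 608030) had a fold change of 0.77.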

How the data were processed

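The authors' deposited table gives FPKM for each of the 4 libraries and 11599 genes, made from paired-end reads mapped with TopHat2 2.1.0 per the submitters' processing notes. The programs that counted reads and computed FPKM, the annotation, and the treatment of reads shared between similar genes are not given in the sources used here. The signal values in the authors' deposited table are scaled read counts per area. For SII they fit a mean over the 2 SII libraries, scaled between libraries. For SIO they did not follow from the FPKM of the 2 SIO libraries, and the sources used here do not give the reason. The SII means and the FPKM together gave back the reads of each gene and library as whole numbers, to within 0.01 (23108142 to 27992918 per library), except for 121 and 132 genes in SIO replicates 1 and 2. The authors' log2 fold changes, p-values and adjusted p-values, and the SIO mean scaled counts, were not used. The table names columns by area, and the number in a column name served only as the replicate's name. No column of per-sample values was left out.

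The 8906 genes that reached an FPKM of 1 in 2 or more libraries entered a two-sided limma test (limma 3.58.1, R 4.3.3) of the area, with no other term and with a mean-variance trend, on log2(FPKM + 1), and p-values were adjusted over all of them by Benjamini-Hochberg. A fold change understates the change of low genes on this scale. The thresholds are those of the study, whose DEGSeq test was replaced by one that uses the replicates. Sums, shares and ratios used pandas 2.3.3 and numpy 2.4.6, and figures matplotlib 3.10.9. The genes and the lists of surrounding metabolism were chosen with earlier results of these data known. Values in every library are given for called genes, the most abundant gene of each step (by mean FPKM over the libraries) and all genes of the glyoxylate and methylcitrate steps and ATP citrate lyase, and in each surrounding list for up to 3 called genes with the largest change and the most abundant gene. Of the 41 genes, 0 matched a gene of the RefSeq table by identifier, so that positions and sequences are not given. Alternatives were another pseudocount, no filter and one of FPKM 10, median-ratio scaling, quantile normalization, no trend, a replicate block, a weight per library, leaving out each library, limma-voom on the recovered reads, removal of the trend with gene length, and other thresholds.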

Additional observations from a re-analysis of the deposited data

How the results depend on the processing

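The counts of calls depended most on which library was left out and on the filter. Leaving out each library in turn gave 0 to 4 of the 41 genes higher and 0 to 19 lower, 76 to 1778 higher and 2 to 2133 lower over all genes, and 0 to 4 higher and 0 to 17 lower in the surrounding lists. The low counts came without an SIO replicate, where 3 higher and 18 lower of the 41 (without SIO replicate 1) or 2 and 21 (without SIO replicate 2) had an unadjusted limma p under 0.05. Without a filter limma called 0 genes in each direction in the 41, in the surrounding lists and over all 11599, although 5305 genes, 3 higher and 25 lower of the 41 among them, had an unadjusted p under 0.05, and limma-voom with the filter called 884 higher and 1096 lower. Median-ratio scaling gave 5 of the 41 lower, and 4 lower in the surrounding lists, as did quantile normalization and removal of the length trend in the latter. A weight per library gave 14 of the 41 lower. An adjusted p under 0.05 gave 18 of the 41 lower, 17 lower in the surrounding lists, and 1386 higher and 1876 lower over all genes.

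With the replicate number as a block, 1 of the 41 was higher and 12 lower. Citrate synthase (limma adjusted p = 0.0128) and the fumarate reductase-like gene (0.0102) lost their calls, and 5 genes gained one: both malate dehydrogenase genes, both ATP citrate lyase genes and 3-isopropylmalate dehydrogenase. Both areas came from the same plates, but the labels do not say which SII and SIO libraries share plates, and the differences between replicates 1 and 2 in SII and SIO correlated at 0.195 over 8906 genes. Signs changed only in genes that were not called. JGI 595373 was at 0.058 under median-ratio scaling and 0.020 under quantile normalization, and JGI 493973 at 0.0020 under median-ratio scaling. Leaving out a library moved JGI 595373 between -0.25 and 0.18, JGI 493973 between -0.19 and 0.011, JGI 552208 between -0.083 and 0.34, JGI 507267 between -0.0041 and 0.43 and JGI 225278 between -0.055 and 0.11. Of the 41 genes, 3 had under 200 reads in some library, and their values are the least precise.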

Other observations

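The numbers that the deposited table gives its genes put some members close together. The ATP citrate lyase genes JGI 533191 and JGI 482765 are gene 2877 and gene 2879. JGI 502998 and JGI 484106, matched to methylcitrate enzymes, are gene 3650 and gene 3658. JGI 533771, whose description does not say which lyase of its family it is, is gene 3643, and malate synthase (JGI 543485) is gene 3619. Of 14 rows of the table numbered from 3643 to 3658, all tested by limma, 4 were called lower in SII (12.2% of all genes tested were), 1 of them the 2-methylcitrate synthase gene JGI 502998 that helped to pick the stretch, and the median log2 fold change was -0.93. Whether these numbers follow the order of genes in the genome is not given in the sources used here, and the stretch was chosen after its values were seen.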
